A study of Macaca mulatta with 6 samples.

Results

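The non-glycolytic hypoxia effector genes are genes outside glycolysis that cells are known to switch on when oxygen is low. The set was given by name as 10 genes: NDRG1, ADM, CA9, CA12, ANKRD37, STC1, STC2, ERO1A, MXI1 and BHLHE40. Of these, 7 had a row in the count table of 17795 genes and all 7 passed the filter on low counts, as did 11539 genes in all. CA9, ANKRD37 and BHLHE40 had no row and were not analysed here.

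The measurements are bulk RNA sequencing of rhesus monkey cultures that the authors describe as SSCs, grown in droplets of hydrogel in 3D. SSCs are the spermatogonial stem cells that renew themselves and give rise to sperm. Human platelet-derived growth factor (PDGF) was in the medium of 3 libraries (SSC PDGF+) and absent from that of 3 PDGF-free controls (SSC PDGF-). By the culture methods, the medium with PDGF also held serum, GDNF, EGF, LIF, bFGF and Wnt3a. The methods do not describe the medium or the matrix of the PDGF-free controls separately. The incubator gas is given by its CO2 alone, so no oxygen level is stated. The labels call the tissue testis, place replicate 1 of each group in batch 1 and replicates 2 and 3 in batch 2, and do not say whether replicates are separate cultures, so the p-values below measure the spread between libraries. Donor animals and their ages are not given for these libraries in the sources used here.

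Totals per library lay between 10593805 and 14102697 counts and were higher in all 3 SSC PDGF+ libraries than in the controls. Replicates 2 and 3 lay close to each other: their counts differed by a chi-square of 3.43 (with PDGF) and 3.66 (without) for each degree of freedom, where 1 is sampling noise, against 47.2 to 60.2 between replicate 1 and either of them. The label of a stem cell culture was checked against marker genes. Germ cell markers, of which 5 of 6 were analysed, summed to 0.451 to 1.42 CPM (the counts of a gene scaled to a common library size) in SSC PDGF+ and 6.08 to 9.58 CPM in SSC PDGF-. Of these, 4 were tested, of which 3 were lower and none was higher, with a median log2 fold change of -2.72. With the replicate block, 4 were lower. Of the 12 markers of undifferentiated spermatogonia, 10 were analysed and summed to 376 to 437 CPM with PDGF and 351 to 463 CPM without, nearly all of it ID4 and UCHL1, with NANOS2 at 0 in every library. The near-equal sums hide opposite differences: 4 of these markers were tested, of which 1 (UCHL1) was higher and 2 (TSPAN33 and FGFR3) were lower with PDGF, with a median log2 fold change of -1.20 (1 and 3 with the replicate block). By edgeR's quasi-likelihood test, the call of UCHL1 was lost without any 1 of the 4 batch 2 libraries (adjusted p up to 0.13) and that of FGFR3 without SSC PDGF+ replicate 2 or SSC PDGF- replicate 2 or 3 (adjusted p up to 0.071). Markers of fibroblasts and stroma, 7 of 7, summed to 14095 to 19409 CPM with PDGF and 16947 to 19129 CPM without. All 7 were tested, of which none was higher and 2 were lower, with a median log2 fold change of -0.42 (2 and 4 with the replicate block). Spermatid markers, 6 of 8, summed to 103 to 145 CPM with PDGF and 558 to 857 CPM without, and all 4 that were tested were lower. The summed level was thus highest for the stromal markers in both groups, and the name SSC is kept here as that of the authors. In bulk RNA, fewer cells of a type and less RNA per cell cannot be told apart, and the part that cell makeup has in the results below was not tested.

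When oxygen is plentiful, prolyl hydroxylases mark the alpha subunits of hypoxia-inducible factor (HIF), and the VHL protein then targets them for destruction. When oxygen is short, the alpha subunit persists, pairs with ARNT and binds DNA at a short core, ACGTG or GCGTG, near genes for glucose use, blood supply, acid handling, protein folding and cell growth. Growth factor signalling can also raise HIF and many of its targets while oxygen is present.

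The promoters of ERO1A, STC2 and ADM are shown because they hold the HIF core and belong to 1 gene with a larger, 1 with a smaller and 1 with no detected difference between the groups. Each is the run of 300 bases ahead of the annotated start, written 5′ to 3′ on the strand of the gene, from the RefSeq annotation release 103 of Mmul_10. ERO1A lies at chr7:114794968-114795267, STC2 at chr6:170735924-170736223 and ADM at chr14:55376883-55377182, all on the minus strand. Capitals mark the core, and CACGT or CACGC in capitals is the same core on the opposite strand.
ERO1A: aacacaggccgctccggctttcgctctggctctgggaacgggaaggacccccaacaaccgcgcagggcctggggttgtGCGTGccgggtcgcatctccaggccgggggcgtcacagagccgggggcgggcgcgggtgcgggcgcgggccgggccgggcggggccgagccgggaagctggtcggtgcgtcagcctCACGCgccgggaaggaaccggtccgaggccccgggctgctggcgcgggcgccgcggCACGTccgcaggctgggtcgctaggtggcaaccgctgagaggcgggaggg
STC2: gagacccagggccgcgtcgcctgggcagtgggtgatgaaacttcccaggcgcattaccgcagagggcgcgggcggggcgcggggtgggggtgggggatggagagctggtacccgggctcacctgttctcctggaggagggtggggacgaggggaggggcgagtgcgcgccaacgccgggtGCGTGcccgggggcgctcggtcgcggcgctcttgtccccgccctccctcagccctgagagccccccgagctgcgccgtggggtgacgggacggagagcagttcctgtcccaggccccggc
ADM: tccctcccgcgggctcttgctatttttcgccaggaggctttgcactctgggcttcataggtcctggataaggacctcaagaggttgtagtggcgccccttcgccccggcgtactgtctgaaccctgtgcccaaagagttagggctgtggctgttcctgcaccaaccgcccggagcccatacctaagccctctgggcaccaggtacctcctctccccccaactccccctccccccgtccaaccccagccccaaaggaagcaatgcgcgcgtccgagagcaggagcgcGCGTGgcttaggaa

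The ERO1A window held 3 cores, which began 222, 106 and 50 bases ahead of the start, and the STC2 and ADM windows held 1 each, 120 and 14 bases ahead. The NDRG1 window held 2, both on the opposite strand, and those of CA12, STC1 and MXI1 held none. Windows with a core thus numbered 4 of 7, against 7972 of 14913 promoters of the same length (53.5%), so the share in these genes was near that of all promoters. STC1 and CA12, which differed strongly between the groups, had no core in the window, and ADM, which did not detectably differ, had one. A match describes letters and is not a measured binding site, and distal elements were not searched. The E-box CACGTG, the palindrome that the partners of MXI1 bind and that contains the HIF core, was in none of the 7 windows and in 8.05% of all promoters. The AP-1 motif TGANTCA was in the CA12 window alone, against 5.75% of all promoters, and the C/EBP-ATF motif TGATGCAA was in none, against 0.603% (both strands were searched for every motif).

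Of the 7 genes, 6 were higher in SSC PDGF+ and none was lower by edgeR's quasi-likelihood test over all genes at a Benjamini-Hochberg adjusted p under 0.05. Across all genes tested, 7.61% were higher and 10.7% were lower by the same test. The log2 fold change, SSC PDGF+ over SSC PDGF-, had a median of 1.34 over the 7 genes and 0.02 over all genes. The genes were chosen with earlier results of these data known, so these contrasts describe the set and do not test it. A model with a block for the replicate number called the same 6 genes, where 31.1% of all genes were higher and 29% were lower. In those 6 genes, every SSC PDGF+ library lay above every control library, a separation that 18.2% of all genes tested showed. The 7 genes together held 0.134% to 0.152% of the counts of a library with PDGF and 0.0254% to 0.0261% without it.

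**Figure D1:**
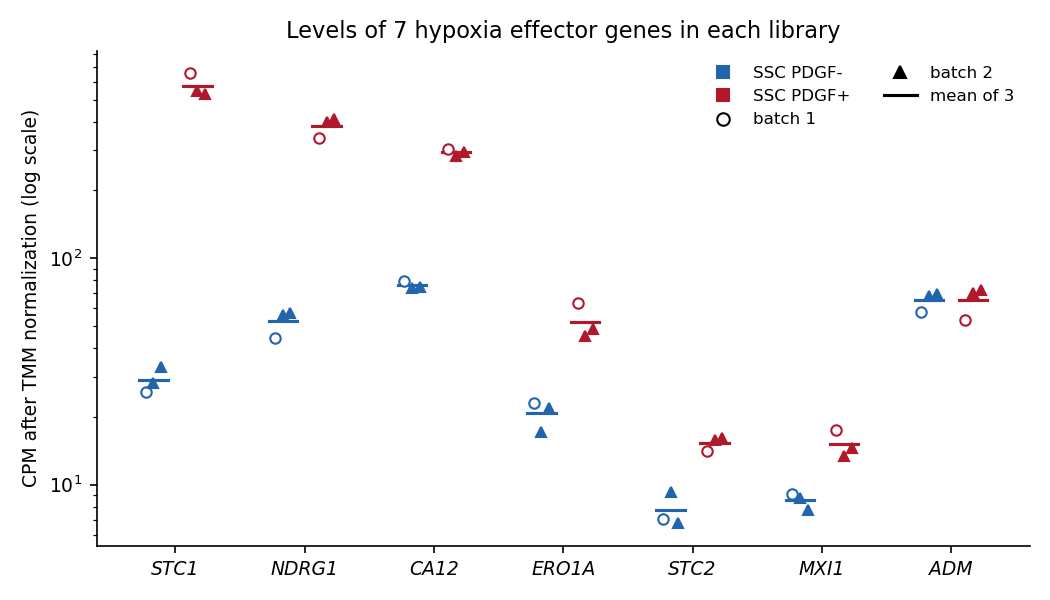
Level of each gene in each of the 6 libraries, in CPM after TMM normalization on a log axis, with SSC PDGF- in blue, SSC PDGF+ in red, open circles for batch 1, triangles for batch 2 and a line at the mean of 3. The red and blue points are apart for 6 genes and overlap for ADM, whose means were 65.1 and 65.2 CPM.

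Among the secreted factors, stanniocalcin 1 (STC1), a glycoprotein hormone that acts on calcium and phosphate handling, differed most. Its level was 656, 549 and 531 CPM in SSC PDGF+ replicates 1, 2 and 3 and 25.6, 28.3 and 33.2 CPM in the SSC PDGF- replicates. The lowest library with PDGF was far above the highest control. Mean levels were 579 ± 67.8 CPM with PDGF and 29.0 ± 3.85 CPM without (SD, n = 3 each), which gave a log2 fold change of 4.32 (SE 0.17, 95% interval 3.92 to 4.71) with an adjusted p of 3.0e-05 by edgeR's quasi-likelihood test. STC1 stood at rank 1 by p and rank 13 by log2 fold change among the 11539 genes. It made up 10.4% to 12.3% of the counts of the 7 genes in the control libraries and 38.2% to 45.4% with PDGF. The protein-coding STC1 gene spans chr8:24104090-24115266 of Mmul_10.

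Stanniocalcin 2 (STC2), its paralogue, is scarcer and moved less. The STC2 gene spans chr6:170721088-170735923. STC2 measured 14.0, 15.7 and 16.2 CPM in SSC PDGF+ replicates 1, 2 and 3 and 7.06, 9.29 and 6.76 CPM in the SSC PDGF- replicates. Every library with PDGF exceeded every control, with 201 to 215 counts against 69 to 97. STC2 thus had a log2 fold change of 0.99 (SE 0.20, 95% interval 0.53 to 1.45, adjusted p = 0.012 by edgeR's quasi-likelihood test). This call was lost without SSC PDGF+ replicate 2 (adjusted p = 0.052), SSC PDGF+ replicate 3 (0.053) or SSC PDGF- replicate 3 (0.053), by edgeR's quasi-likelihood test in each case, while the direction stayed.

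Both stanniocalcins are known to inhibit the pappalysins, proteases that cut insulin-like growth factor (IGF) binding proteins and so free IGF. Of the 7 genes of this axis, 6 were tested, of which 2 were higher and 1 was lower, with a median log2 fold change of 0.36 (3 and 2 with the replicate block). PAPPA, the protease itself, rose from 90.9 to 226 CPM (log2 fold change 1.31, adjusted p = 0.0023 by edgeR's quasi-likelihood test). IGFBP5, a binding protein that it cuts, rose from 1136 to 5642 CPM (log2 fold change 2.31). IGF1, the ligand, fell from 10.3 to 3.55 CPM (log2 fold change -1.55, adjusted p = 0.014 by the same test, and 0.063 with replicates 2 and 3 summed). The second binding protein of the list, IGFBP4, measured 511 CPM with PDGF and 768 CPM without (log2 fold change -0.59, adjusted p = 0.25 by the same test, and lower with the replicate block). The second ligand, IGF2, measured 11.8 and 6.60 CPM (log2 fold change 0.84, adjusted p = 0.086, and higher with the block). Of the binding proteins and ligands, the main test thus called IGFBP5 higher and IGF1 lower, and called neither IGFBP4 nor IGF2. IGFBP4 and IGF2 were named after their values were seen.

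Adrenomedullin (ADM), a secreted vasodilator peptide and a common marker of HIF activity, was the exception in the set. ADM measured 53.3, 69.9 and 72.2 CPM in SSC PDGF+ replicates 1, 2 and 3 and 58.1, 68.2 and 69.2 CPM in the SSC PDGF- replicates. The groups overlapped, and in both of them replicate 1 was the lowest. The 95% interval of its log2 fold change ran from -0.39 to 0.38 (adjusted p = 0.997 by edgeR's quasi-likelihood test), and the sign of the difference turned with the setting. This interval lies below those of the 6 higher genes, by the least for MXI1, whose interval begins at 0.39. The ADM gene, at chr14:55374474-55376882, was not thinly covered, with 706 to 961 counts per library.

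The receptor of adrenomedullin is the CALCRL protein joined to an accessory protein, RAMP2 or RAMP3, and PAM is the enzyme that amidates the peptide. Of the 11 genes of this list, 6 were analysed and 4 tested, of which 1 was higher and 1 was lower, with a median log2 fold change of -0.10 (1 and 2 with the replicate block). CALCRL rose from 25.5 to 67.1 CPM (log2 fold change 1.39, adjusted p = 0.0036 by edgeR's quasi-likelihood test). RAMP2 fell from 8.04 to 1.83 CPM (log2 fold change -2.12, adjusted p = 0.0015 by the same test). PAM measured 339 CPM with PDGF and 391 CPM without (log2 fold change -0.20, adjusted p = 0.40 by the same test, and lower with the replicate block, adjusted p = 0.00096). The receptor and its accessory subunit thus moved in opposite directions while the level of their ligand did not detectably differ. RAMP1 and RAMP3 were not analysed here.

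Carbonic anhydrase 12 (CA12), a membrane enzyme that interconverts carbon dioxide and bicarbonate outside the cell, was the steadiest of the set. Its level was 302, 282 and 296 CPM in SSC PDGF+ replicates 1, 2 and 3 and 79.6, 73.6 and 74.8 CPM in the SSC PDGF- replicates. CA12 spans chr7:39765275-39825655. The groups were well apart, and the coefficient of variation within them was 3.58% and 4.19%. For CA12 the log2 fold change was 1.95 (SE 0.12, 95% interval 1.67 to 2.23, adjusted p = 9.3e-05 by edgeR's quasi-likelihood test). Of 20 other carbonic anhydrases and acid carriers, 19 were analysed and 11 tested, of which 2 were higher and 2 were lower, with a median log2 fold change of -0.09 (4 and 3 with the replicate block). The lactate carriers SLC16A3 (56.4 to 270 CPM, log2 fold change 2.26) and SLC16A1 (27.0 to 51.2 CPM, log2 fold change 0.93) were the higher ones, and the call of SLC16A1 was lost with replicates 2 and 3 summed (adjusted p = 0.10 by edgeR's quasi-likelihood test). CA11, a relative without catalytic activity, fell from 12.7 to 4.59 CPM (log2 fold change -1.46, adjusted p = 0.0089 by edgeR's quasi-likelihood test, and 0.070 with replicates 2 and 3 summed). CA13, a cytosolic isoform, fell from 7.74 to 3.70 CPM (log2 fold change -1.07, adjusted p = 0.034 by edgeR's quasi-likelihood test), a call lost on leaving out any library but SSC PDGF- replicate 3 (adjusted p up to 0.086). CA2, the common cytosolic isoform, measured 5.84 CPM with PDGF and 6.89 CPM without (log2 fold change -0.24, adjusted p = 0.52 by the same test), and CA14 had too few counts to be tested. CA8, a catalytically inactive relative named after its values were seen, measured 1.59 CPM with PDGF and 0.469 CPM without in groups that did not overlap (log2 fold change 1.71, adjusted p = 0.10 by edgeR's quasi-likelihood test, and higher with the replicate block, adjusted p = 0.017).

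ERO1A, the endoplasmic reticulum oxidase that hands disulfide bonds to protein disulfide isomerases, measured 63.4, 45.4 and 48.5 CPM in SSC PDGF+ replicates 1, 2 and 3 and 23.0, 17.1 and 21.8 CPM in the SSC PDGF- replicates. The groups did not overlap, and replicate 1 was the highest in each. The log2 fold change was 1.34 (SE 0.20, 95% interval 0.89 to 1.80, adjusted p = 0.0032 by edgeR's quasi-likelihood test). The ERO1A locus, chr7:114739883-114794967, overlaps that of GPR137C in the annotation but shares no exon base with it, and none of the 7 genes had counts identical to those of another gene. Of its 12 partners in oxidative folding, 9 were tested, of which 2 were higher and none was lower, with a median log2 fold change of 0.41 (6 and 0 with the replicate block). The higher ones were the isomerases PDIA6 (395 to 679 CPM, log2 fold change 0.78) and PDIA4 (569 to 806 CPM, log2 fold change 0.50), and both calls were lost with replicates 2 and 3 summed (adjusted p = 0.11 for PDIA6 and 0.22 for PDIA4), that of PDIA4 also without any 1 of the 4 batch 2 libraries (adjusted p up to 0.073 by edgeR's quasi-likelihood test). ERO1B, the paralogue that is not a classical hypoxia gene, measured 29.3 CPM with PDGF and 18.9 CPM without (log2 fold change 0.64, adjusted p = 0.094 by the same test, and 4.6e-05 with the replicate block). The groups did not overlap for ERO1B either.

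NDRG1, a cytoplasmic protein used as a marker of hypoxia and linked to cell differentiation, was second to STC1 in the size of its difference. NDRG1 measured 340, 401 and 412 CPM in SSC PDGF+ replicates 1, 2 and 3 and 44.5, 56.4 and 57.2 CPM in the SSC PDGF- replicates. The groups were far apart, and replicate 1 was the lowest of each. The difference was 2.87 on the log2 scale (SE 0.16, 95% interval 2.49 to 3.24, adjusted p = 5.7e-05 by edgeR's quasi-likelihood test). The NDRG1 gene spans chr8:133518958-133579553 of Mmul_10. None of its 3 paralogues was higher. NDRG4 fell from 237 to 115 CPM (log2 fold change -1.04, adjusted p = 0.0024 by the same test, and 0.056 with replicates 2 and 3 summed) and NDRG3 fell from 66.1 to 44.8 CPM (log2 fold change -0.56, adjusted p = 0.027), the latter a call lost without any 1 of the 4 batch 2 libraries (adjusted p up to 0.13). NDRG2 measured 42.3 and 41.3 CPM (log2 fold change 0.03, adjusted p = 0.90 by edgeR's quasi-likelihood test), with a sign that turned with the setting. Of the paralogues, 2 were thus lower, and their median log2 fold change was -0.56.

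MXI1, a transcriptional repressor that pairs with MAX and competes with MYC, had the smallest difference of the 6 and spans chr9:110761587-110842715. Its level was 17.5, 13.4 and 14.5 CPM in SSC PDGF+ replicates 1, 2 and 3 and 9.12, 8.72 and 7.74 CPM in the SSC PDGF- replicates. Every library with PDGF exceeded every control, with 172 to 259 counts against 79 to 111. The log2 fold change was 0.83 (SE 0.19, 95% interval 0.39 to 1.27, adjusted p = 0.021 by edgeR's quasi-likelihood test). This call was lost without SSC PDGF+ replicate 2 (adjusted p = 0.050), SSC PDGF+ replicate 3 (0.062), SSC PDGF- replicate 2 (0.067) or SSC PDGF- replicate 3 (0.081), by edgeR's quasi-likelihood test in each case, with the direction kept.

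Of the 12 partners and relatives of MXI1, 9 were tested, of which 2 were higher and none was lower, with a median log2 fold change of -0.06 (3 and 3 with the replicate block). MYC, the growth regulator that MXI1 opposes, rose from 64.7 to 92.2 CPM (log2 fold change 0.51, adjusted p = 0.047 by edgeR's quasi-likelihood test), and MLX, a MAX-like partner, rose from 53.5 to 81.7 CPM (log2 fold change 0.61, adjusted p = 0.046). Both calls were lost without any 1 of the 4 batch 2 libraries, that of MYC also without SSC PDGF- replicate 1 and that of MLX also without SSC PDGF+ replicate 1 (adjusted p up to 0.16 for each by the same test). MAX measured 107 CPM with PDGF and 111 CPM without (log2 fold change -0.06, adjusted p = 0.82 by the same test), with a sign that turned when single libraries were left out. The sister repressors MXD1 (log2 fold change -0.61), MXD3 (-0.85) and MXD4 (-0.41) did not pass the test, at adjusted p = 0.14, 0.16 and 0.44 by edgeR's quasi-likelihood test, and each was lower with the replicate block. MXI1 was thus the family member with a positive difference, and the difference between it and its sisters was not tested.

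**Figure D2:**
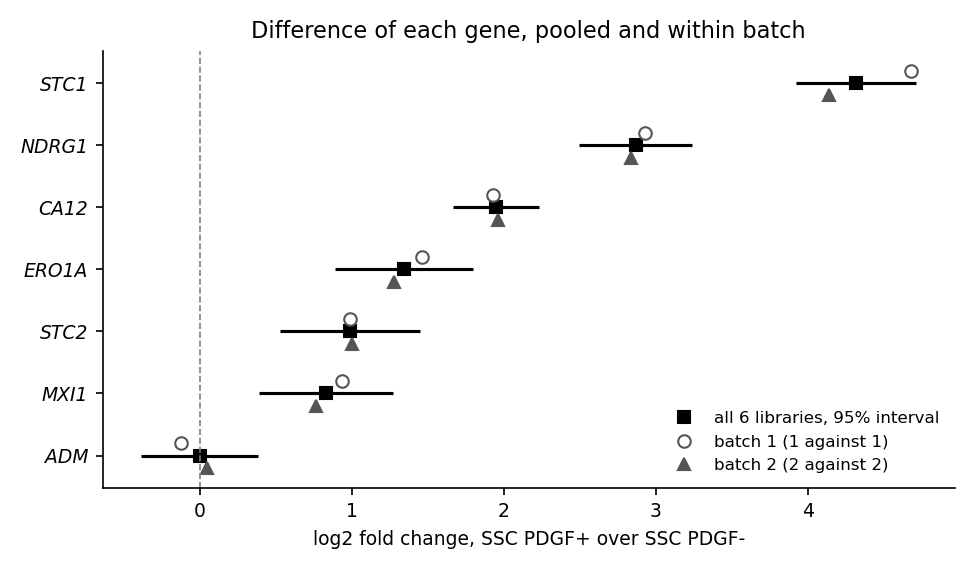
Log2 fold change of each gene, SSC PDGF+ over SSC PDGF-, with squares and 95% intervals from all 6 libraries, open circles for the 1 pair of batch 1 and triangles for the 2 against 2 libraries of batch 2. The batch values lie close together for all genes, with the widest gap in STC1, at 4.68 in batch 1 and 4.14 in batch 2.

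Within batches, the 6 higher genes kept their direction. The log2 difference in batch 1 and in batch 2 was 2.93 and 2.84 for NDRG1, 1.93 and 1.96 for CA12, and 4.68 and 4.14 for STC1. It was 1.46 and 1.28 for ERO1A, 0.99 and 1.00 for STC2, and 0.94 and 0.76 for MXI1, against -0.13 and 0.05 for ADM. Batch 1 is a single pair of libraries, so its values have no replicate. The interaction of PDGF with batch passed the adjusted threshold in 0 of 11539 genes (0%) by edgeR's quasi-likelihood test, with 526 genes at an unadjusted p under 0.05. For STC1 its log2 size was -0.54 (unadjusted p = 0.00033, adjusted p = 0.865 by the same test). The batches also differed in level. NDRG1 and ADM were lower in batch 1 in both groups, at 0.834 and 0.783 times the batch 2 mean for NDRG1 with and without PDGF and 0.750 and 0.847 times for ADM. ERO1A was higher in batch 1 in both groups, at 1.35 and 1.18 times, while STC1 was higher in batch 1 with PDGF (1.22 times) and lower without it (0.834 times).

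Per kb of annotated exon, the order of the levels changed between the groups. Without PDGF, ADM led with 37.4 CPM per kb, followed by CA12 with 16.9, NDRG1 with 15.8, STC1 with 13.05, ERO1A with 9.19, MXI1 with 2.04 and STC2 with 1.42 CPM per kb. The ranges of CA12 and NDRG1 overlapped, as did those of NDRG1 and STC1, and the other neighbours in this order did not. With PDGF the order was STC1 with 260 CPM per kb, NDRG1 with 115, CA12 with 65.3, ADM with 37.3, ERO1A with 23.3, MXI1 with 3.62 and STC2 with 2.82 CPM per kb, and no neighbours overlapped. ADM thus led the order without PDGF and stood behind STC1, NDRG1 and CA12 with PDGF, at nearly the same level.

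**Figure D3:**
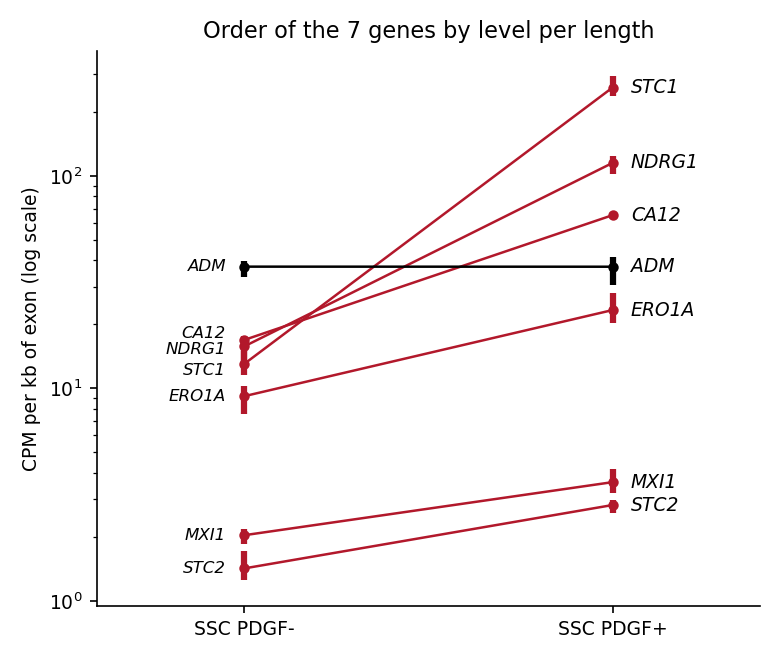
Level of each gene per kb of exon, in CPM per kb on a log axis, in the 2 groups, with points at the mean of 3 libraries and thick bars from the lowest to the highest library. The line of ADM, in black, is flat at 37.4 and 37.3 CPM per kb, and the lines of STC1, NDRG1 and CA12 cross it.

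The genes whose pattern over the 6 libraries was nearest to each of the 6 higher genes were found by the root mean square distance of log2(CPM + 1), set to 0 at the control mean, among 10810 genes. For NDRG1 these were the semaphorin SEMA7A (distance 0.125) and the basement membrane gene NID2 (0.127). CA12 lay nearest to the basement membrane collagen COL4A1 (0.0747) and the adhesion gene CLMP (0.0830). ERO1A lay nearest to the hyaluronan synthase HAS2 (0.0707) and FLRT3 (0.0731). STC1 lay nearest to the VEGF receptor FLT1 (0.481) and the cytokine TNFSF11 (0.492). STC2 lay nearest to NGEF (0.0737) and EMC1 (0.0874), and MXI1 to SMURF2 (0.0417) and LRRC8D (0.0517). A gene with a small difference has less distance to cover, so the distances are not to be compared between genes.

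The oxygen-sensing genes moved in both directions. Of 11 HIF subunits, hydroxylases and related genes, 8 were tested, of which 2 were higher and 2 were lower, with a median log2 fold change of -0.11 (3 and 3 with the replicate block). HIF1A, the main alpha subunit, rose from 569 to 1297 CPM (log2 fold change 1.19, adjusted p = 0.0057 by edgeR's quasi-likelihood test, and 0.054 with replicates 2 and 3 summed), and EPAS1, the second alpha subunit, rose from 190 to 271 CPM (log2 fold change 0.51, adjusted p = 0.020). EGLN3, a prolyl hydroxylase that is itself a classical HIF target, fell from 58.1 to 9.96 CPM (log2 fold change -2.55, adjusted p = 8.7e-05 by the same test), and ARNT2, a partner subunit, fell from 13.5 to 5.66 CPM (log2 fold change -1.25, adjusted p = 0.012). The call of EPAS1 was lost without any 1 of the 4 batch 2 libraries (adjusted p up to 0.092) and that of ARNT2 without SSC PDGF+ replicate 3 (0.053). ARNT measured 37.8 and 27.3 CPM (log2 fold change 0.47, adjusted p = 0.074 by edgeR's quasi-likelihood test), and EGLN2 measured 171 and 231 CPM (log2 fold change -0.43, adjusted p = 0.31), with and without PDGF, and with the replicate block ARNT was higher and EGLN2 lower. VHL and EGLN1 were not analysed here. EGLN3 thus went against the 6 higher genes.

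Other known HIF targets were mostly higher where they passed the test. Of 30 further non-glycolytic targets, 24 were tested, of which 12 were higher and none was lower, with a median log2 fold change of 0.67 (17 and 5 with the replicate block). EGLN3, which was lower, is counted with the oxygen-sensing genes and not in this list. The 5 lower with the block were ANGPTL4, PPFIA4, PPP1R3C, ANKZF1 and HMOX1. ANGPTL4 measured 28.8 CPM with PDGF and 61.2 CPM without (log2 fold change -1.09, adjusted p = 0.065 by edgeR's quasi-likelihood test), in groups that overlapped. VEGFA, the vessel growth factor, rose from 50.3 to 409 CPM (log2 fold change 3.02), and VLDLR, a lipoprotein receptor, rose from 21.3 to 94.2 CPM (log2 fold change 2.14). Of 21 genes of glucose uptake and glycolysis, 18 were tested, of which 12 were higher and none was lower, with a median log2 fold change of 1.09 (18 and 0 with the replicate block). The largest were HK2 (23.8 to 126 CPM, log2 fold change 2.41) and ALDOC (10.5 to 53.4 CPM, log2 fold change 2.35). The median of the 7 hypoxia effectors, 1.34, lay above both, and the difference between the lists was not tested.

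**Figure D4:**
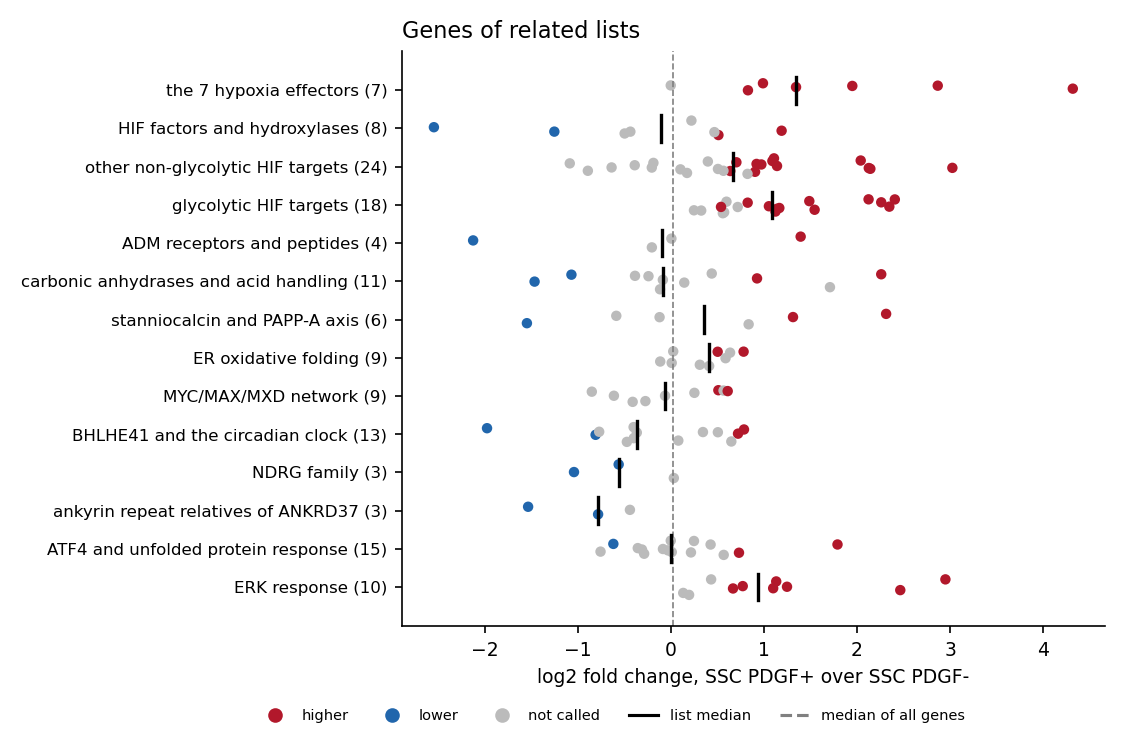
Log2 fold change of every tested gene of the 7 hypoxia effectors and of 13 related lists, with the number tested in brackets, red for higher, blue for lower and grey for not called, black lines at list medians and a dashed line at the median of all genes, 0.02. The effectors, the HIF target lists and the ERK list lie mostly to the right. The lists of HIF factors, NDRG paralogues, ADM receptors, carbonic anhydrases and the stanniocalcin axis hold called genes on the left. So do those of the circadian clock, ankyrin repeat genes and the ATF4 response.

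ERO1A and STC2 are also known to respond to stress of the endoplasmic reticulum. Of 19 genes of the ATF4 and unfolded protein responses, 15 were tested, of which 2 were higher and 1 was lower, with a median log2 fold change of -0.00 (6 and 4 with the replicate block). The pseudokinase TRIB3 rose from 11.9 to 41.1 CPM (log2 fold change 1.79) and the chaperone HSPA5 rose from 1094 to 1817 CPM (log2 fold change 0.73), the latter a call lost with replicates 2 and 3 summed (adjusted p = 0.10 by edgeR's quasi-likelihood test). SESN2 fell by 0.62 on the log2 scale, a call lost on leaving out any library but SSC PDGF- replicate 1 (adjusted p up to 0.13 by edgeR's quasi-likelihood test). Of 18 genes of the ERK response, which receptor tyrosine kinases such as the PDGF receptors switch on, 10 were tested, of which 7 were higher and none was lower, with a median log2 fold change of 0.94 (9 and 0 with the replicate block). FOSB (0.281 to 2.21 CPM) and EGR2 (4.74 to 26.3 CPM) had the largest differences, at 2.95 and 2.46.

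For BHLHE40 and ANKRD37, which had no row, genes that share a family or a repeat with them were read. BHLHE41, the paralogue of the repressor BHLHE40, measured 57.3 CPM with PDGF and 54.2 CPM without (log2 fold change 0.08, adjusted p = 0.75 by edgeR's quasi-likelihood test), with a sign that turned without SSC PDGF- replicate 1. Of the genes of the circadian clock, in which both take part, 15 were analysed, with CLOCK at 0 in every library, and 13 were tested. Of these, 2 (NPAS2 and CRY1) were higher and 2 (DBP and CRY2) were lower, with a median log2 fold change of -0.37 (5 and 3 with the replicate block). Each of these 4 calls was lost with single libraries left out, CRY2 without SSC PDGF+ replicate 2 or SSC PDGF- replicate 3, CRY1 without these or SSC PDGF- replicate 2, NPAS2 without any 1 of the 4 batch 2 libraries and DBP without those or SSC PDGF+ replicate 1 (adjusted p up to 0.073, 0.089, 0.094 and 0.11 by the same test). Of 9 other genes named for the ankyrin repeat, 3 were tested and 2 were lower. The shared repeat was the only ground for this list, and its values do not stand for those of ANKRD37. ANKRD1 fell from 8.50 to 2.93 CPM (log2 fold change -1.53, adjusted p = 0.0086, and 0.066 with replicates 2 and 3 summed), and ANKRD10 fell from 149 to 86.8 CPM (log2 fold change -0.78), a call lost without SSC PDGF+ replicate 2 or 3 or SSC PDGF- replicate 3 (adjusted p up to 0.10 by the same test).

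**Figure D5:**
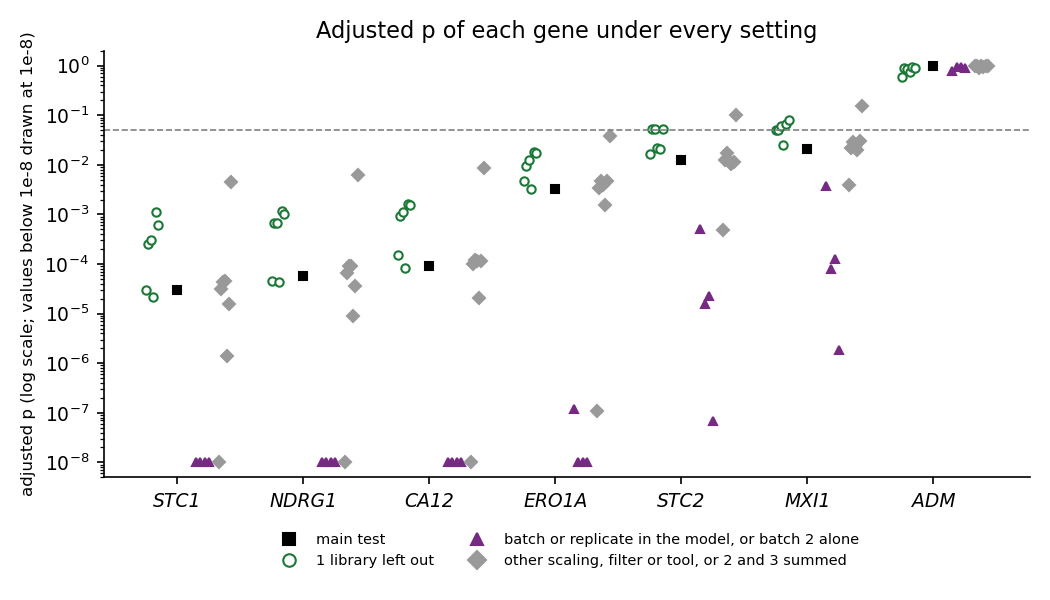
Adjusted p of each gene on a log axis under every setting, with squares for the test as reported, open circles with 1 library left out, triangles for models with batch or replicate and for batch 2 alone, and diamonds for other scalings, filters and tools and for replicates 2 and 3 summed. The dashed line is at 0.05; STC1, NDRG1, CA12 and ERO1A stay below it in every setting, STC2 and MXI1 cross it, and ADM stays above it.

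STC1, NDRG1, CA12 and ERO1A were called in every setting tried, and their call did not depend on any 1 library. The markers of other cell types that moved with PDGF are given beside these results. Peritubular myoid markers, 5 of 5, summed to 178 to 189 CPM with PDGF and 636 to 656 CPM without. All 5 were tested, of which 3 were lower and none was higher. Epithelial markers, 5 of 6, summed to 35.6 to 51.9 CPM and 87.3 to 122 CPM, and of 4 tested 3 were lower and none was higher. Sertoli cell markers, 5 of 7, summed to 1448 to 1920 CPM with PDGF and 868 to 1167 CPM without. The Sertoli sum is mostly CLU, the 1 called gene of 4 tested, whose call was lost without SSC PDGF+ replicate 2 (adjusted p = 0.056 by edgeR's quasi-likelihood test) or replicate 3, and the median log2 fold change of the list was 0.08. Leydig cell markers, 6 of 6, summed to 262 to 328 CPM with PDGF and 231 to 266 CPM without, with CYP11A1 at 0. Of these, 3 were tested, of which none was higher and 1 (IGF1) was lower (1 and 1 with the replicate block). Endothelial markers, 5 of 6, summed to 12.2 to 16.8 CPM and 11.1 to 16.2 CPM, myeloid markers, 3 of 6, to 16.4 to 18.6 CPM and 11.3 to 17.7 CPM, and the T cell markers CD3E and CD3G were at 0 in every library. The part of these shifts in the levels of the hypoxia effector genes was not tested.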

How the data were processed

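RNA sequencing libraries of 3 SSC PDGF+ and 3 SSC PDGF- samples were analysed. The authors deposited expected counts per gene, without normalization, in which 34 values of 13 genes were not whole. The design had assumed whole counts, and values were rounded. The submitters' processing notes name fastp, HISAT2 2.1.0, SAMtools, featureCounts 2.0.1 and both Mmul_10 and Mmul_8.0.1, without saying which build these counts used. Promoters and exon lengths came from RefSeq annotation release 103 of Mmul_10, matched by symbol, and strand-specific counting is not stated in the sources used here.

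Counts were filtered by filterByExpr, normalized by TMM and tested with edgeR 4.0.16 (R 4.3.3) over all genes, with Benjamini-Hochberg adjustment. SE was taken as |log2 fold change| over the root of the F statistic. Within-batch differences used 0.5 added counts. Alternatives were DESeq2 1.42.0, limma-voom (limma 3.58.1), RLE or no normalization factors, other filters and thresholds, the replicate number as a block, a batch term, the batch 2 libraries alone, the sum of replicates 2 and 3, and each library left out. The steps were tested on data simulated with no batch difference. There the main test recovered 50 of 100 genes set to an absolute log2 fold change of 1. It recovered 95 of 99 genes set to 2, with 12 false calls. A gene that was not called can thus still differ. Tables and figures used Python 3.11.15, pandas 2.3.3 and matplotlib 3.10.9.

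The effector genes, lists and rules were chosen with earlier results of these data known. Named genes are the effectors, their direct relatives and partners, the oxygen-sensing genes, up to 2 called genes in each direction per list by log2 fold change, and the 2 nearest genes of each called effector with a mean log2 CPM of at least 1. Outside this rule, IGFBP4, IGF2, CA8 and the markers UCHL1, TSPAN33, FGFR3, CLU and ID4 were named after their values were seen. So were ANGPTL4, PPFIA4, PPP1R3C, ANKZF1 and HMOX1. By the labels, equal replicate numbers mean an equal batch, and deviations of such libraries from the group means correlated with r = 0.81, 0.48 and 0.50 for numbers 1, 2 and 3 (cross pairs of 2 and 3, 0.47 and 0.53), and they were taken to pair libraries by batch.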

Additional observations from a re-analysis of the deposited data

How the results depend on the processing

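The 6 higher effector genes kept their direction in all 102 alternative values and their call in 93. The replicate block changed no call of an effector gene, and the log2 fold change of NDRG1 was 2.87 with it. Summing replicates 2 and 3 ended the calls of STC2 (log2 fold change 1.00, adjusted p = 0.10 by edgeR's quasi-likelihood test) and MXI1 (0.87, adjusted p = 0.15), which returned with batch as a term. With 1 library left out, the log2 fold change ranged from 0.91 to 1.15 for STC2 and from 0.72 to 0.92 for MXI1, and 4 to 6 effectors were called. The sign of ADM turned with batch 2 alone (0.031), no filter (0.028) and no normalization factors (0.011), and ranged from -0.089 to 0.14 with 1 library left out. An adjusted p under 0.01 or an absolute log2 fold change of at least 1 each left 4 effectors.

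Over the related lists, 45 genes were higher and 13 lower. These numbers became 74 and 29 with the replicate block, 74 and 29 with batch as a term, 69 and 29 with batch 2 alone, 19 and 2 with replicates 2 and 3 summed, and 76 and 30 with that sum and batch as a term. With 1 library left out they ranged from 32 to 51 and from 7 to 15, with the lowest lower counts without SSC PDGF+ replicate 2 (7), SSC PDGF+ replicate 3 (7) or SSC PDGF- replicate 3 (8). The log2 fold change of NDRG2 turned to -0.0017 with at least 10 counts in every library and -0.013 with batch 2 alone. With 1 library left out it ranged from -0.053 to 0.089, that of MAX from -0.17 to 0.054 and that of BHLHE41 from -0.0092 to 0.18. Across all genes, the calls were 878 higher and 1230 lower, and 206 and 487 with replicates 2 and 3 summed. The cause of these changes was not tested. With 3 libraries a group, an exact permutation test of a single gene cannot give a two-sided p under 0.1. STC2 and MXI1 had the fewest counts of the 7 genes, and counting error was not separated from the spread between libraries.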
